A study of Mus musculus with 6 samples.

Results

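The genes described here encode the nuclear parts of respiratory complexes II, III and IV and of ATP synthase (complex V), together with the electron carrier cytochrome c and assembly factors of complex IV. They are the rows of the deposited count table whose symbol begins with Uqcr, with Cox and a digit, or with Atp5, plus Sdha, Sdhb, Sdhc, Sdhd, Cyc1 and Cycs. This gave 58 of 45808 rows, after 5 rows whose names mark them as pseudogenes (-ps) were left out. They fell into 4 genes of complex II, 9 of complex III, 1 for cytochrome c, 18 for complex IV subunits, 9 for complex IV assembly, and 17 named for ATP synthase. Among the last is Atp5sl, which is not a subunit of that enzyme. Polyadenylated RNA was sequenced from T cells that had been purified from the spleen of mice of C57BL/6 background, whose age the labels give as 2M, read here as months, and activated in culture with antibodies to CD3 and CD28 plus IL-2. There were 3 wild-type libraries and 3 libraries of genotype Drp1-/-, called KO here. Drp1, encoded by Dnm1l, is the dynamin-related GTPase that divides mitochondria. The labels name no promoter or cell type for the deletion and do not say whether the replicates came from separate animals, so each p-value reflects the scatter of these libraries alone, and that scatter may be technical.

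Complex II oxidises succinate and hands its electrons to ubiquinone. Complex III passes them from ubiquinol to cytochrome c, and complex IV passes them from cytochrome c to oxygen. Complexes III and IV pump protons, and ATP synthase uses the resulting gradient to make ATP through a rotary mechanism, with a catalytic F1 head and a membrane-bound Fo part. Complexes III, IV and V combine nuclear subunits with a few subunits encoded by mitochondrial DNA, while complex II is wholly nuclear. Activated T cells enlarge their mitochondria and use both glycolysis and respiration while they grow.

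Genes of complex III and cytochrome c were mostly higher in KO, and genes of complex IV moved both ways. Genes of complex II and ATP synthase were higher or did not pass. Atp5sl, which is named for ATP synthase but is not a subunit of it, fell. A gene was called at an adjusted p under 0.05 in edgeR's quasi-likelihood test, with p-values adjusted by Benjamini-Hochberg over all tested genes. Of the 58 genes, 55 passed the filter on low counts and were tested. Of those 55, 23 were higher, 8 lower and 24 did not pass, so that 41.8% were higher and 14.5% lower. Over all 14209 tested genes 26.7% were called higher and 26.1% lower, or 52.9% either way, against 56.4% of the respiratory genes. The median log2 fold change, KO over wild type, was 0.08 over the respiratory genes and 0.01 over all tested genes. Library totals alone as the scaling gave 29 higher and 7 lower respiratory genes, and 62.0% of all calls higher against 50.6% with the normalization used here.

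The rises were small, and the falls had the larger median change, in part through genes read at a low level. Among the 23 genes that rose the log2 change ran from 0.15 to 0.71 with a median of 0.31, against a median of 0.43 for all genes called higher. Among the 8 that fell it ran from -0.19 to -2.03 with a median of -0.63, against -0.39 for all genes called lower. Of the called genes, 1 that rose changed by 1.5-fold or more, Cycs, and so did 5 that fell, Cox4i2, Cox7a1, Cox20, Cox6a2 and Atp5sl. Over all tested genes 15.7% were called and changed by that much. Of the 8 genes that fell, 3 had a wild-type mean under 3 CPM, the count scaled to a common library size with TMM factors. These were Cox4i2, Cox6a2 and Cox7a1, with an SE of 0.16 to 0.24, so only large changes could be called. Among the other falls, Atp5sl is not a subunit, and Cox20 was at log2 -0.48 without wild-type replicate 1. Cox7a2l (log2 -0.47), Uqcrh (log2 -0.41) and Cox14 (log2 -0.19) fell by less than 1.5-fold. All 3 KO libraries lay above all 3 wild-type libraries for 27 of the 55 genes and below them for 10, where 32.5% and 30.8% of all tested genes did so (63.3% either way).

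**Figure D1:**
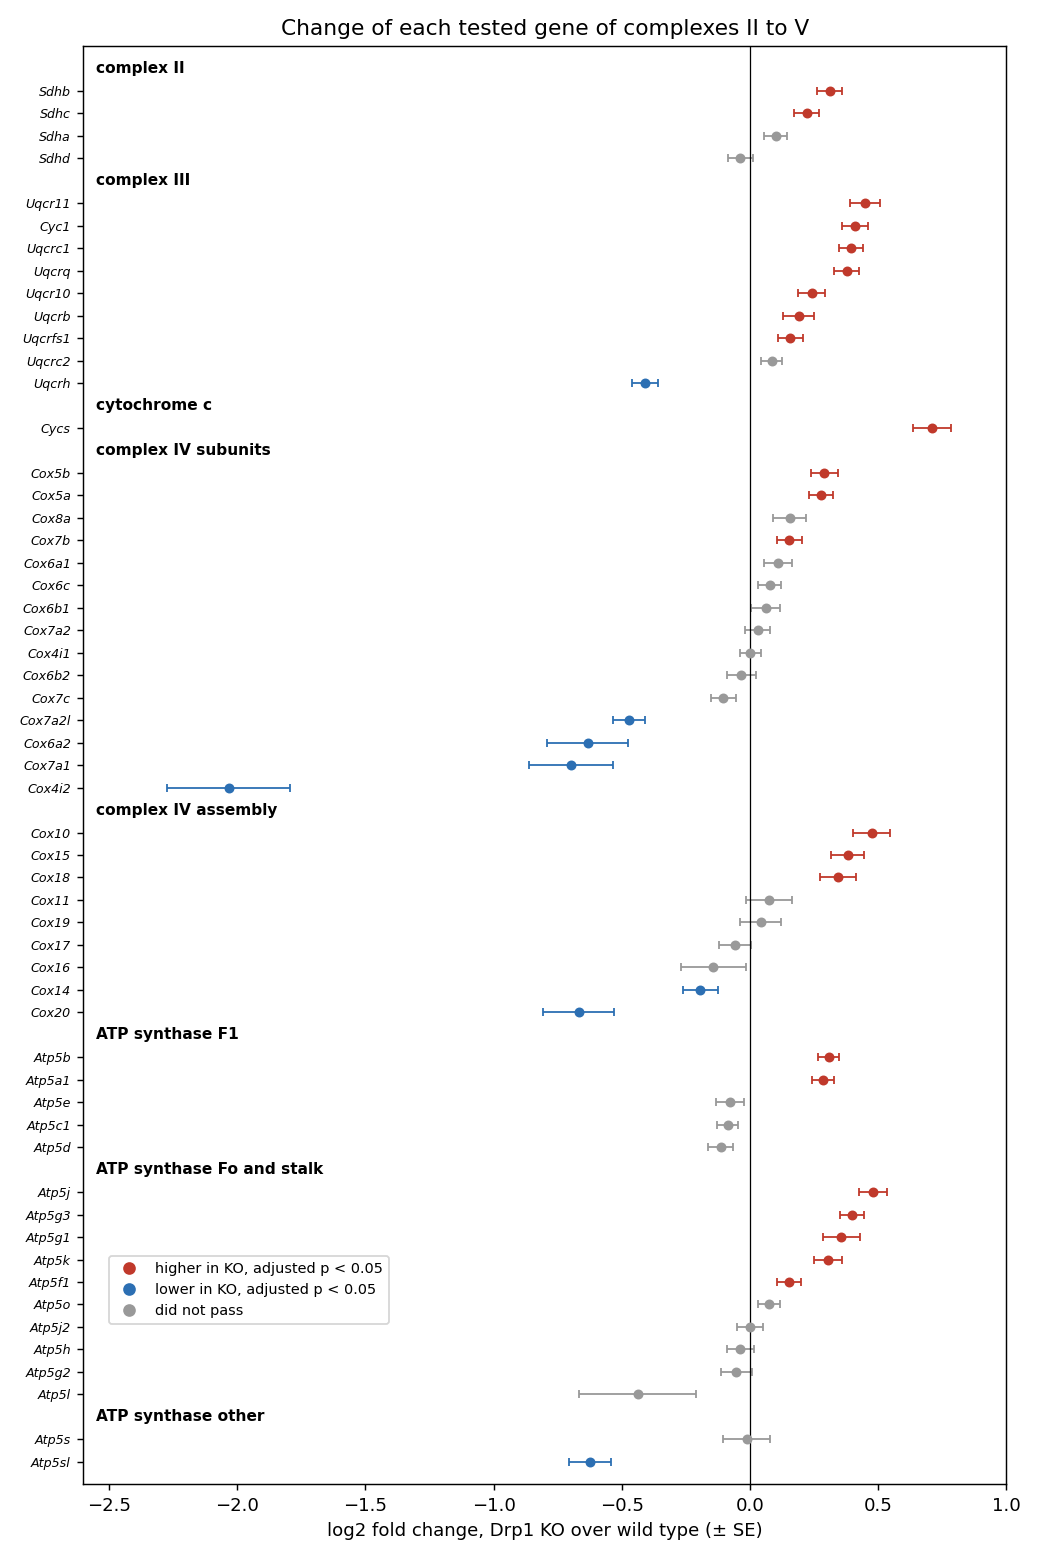
Log2 fold change of KO over wild type (x axis, with SE) for each of the 55 tested genes, sorted within each group of genes (y axis); red points were called higher, blue points lower and grey points did not pass. Cycs lies farthest to the right at 0.71, Cox4i2 farthest to the left at -2.03, and complex III has 7 of its 9 genes in red.

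The libraries held 24738017 to 34730475 counts. Dnm1l, the targeted gene, was read in every library, at 123, 117 and 117 CPM in wild type and 92.6, 92.9 and 101 CPM in KO, and fell in the KO libraries (log2 -0.32 ± 0.05, adjusted p = 0.000728, edgeR). The labels do not say which exons are deleted, so reads from the rest of the gene can remain. One library, wild-type replicate 1, differed from its group: its chi-square per gene was 11.2 and 12.5 against the other wild-type libraries, which gave 2.43 between themselves. It was the lowest of the 6 libraries for 19 of the 55 genes (34.5%) and the highest for 13 (23.6%). Over all tested genes it was the lowest for 34.3% and the highest for 32.7%. Without it the counts of 23 higher and 8 lower stayed the same. All 10 T cell markers were read in every library, and 7 of them were lower in KO (median log2 -0.22). Of 5 B cell markers 1 was higher (summed level in wild type 143 to 156 CPM, KO 142 to 151 CPM). Markers of rarer cells were higher in KO: 3 of 3 tested megakaryocyte genes (summed level in wild type 7.58 to 9.66 CPM, KO 19.9 to 22.9 CPM), 4 of 4 mast cell and basophil genes (wild type 1.49 to 1.85 CPM, KO 6.66 to 8.90 CPM) and 2 of 3 NK genes (wild type 4.39 to 4.80 CPM, KO 6.30 to 7.03 CPM). Of 6 erythroid markers 1 was tested, Hbb-bt, which was higher, while Hba-a2 was at 0 in all libraries, and their summed level was low (in wild type 0.383 to 0.805 CPM, KO 1.32 to 1.88 CPM). Of 5 myeloid markers 2 were tested, Lyz2, higher, and Itgam, lower (wild type 3.83 to 4.38 CPM, KO 3.06 to 4.03 CPM). Xist, read only from an inactivated X chromosome, ranged from 0 to 3 counts among wild-type libraries and from 12950 to 16862 among KO libraries, so sex and genotype cannot be told apart. What part these differences had in the values below was not tested. In such bulk RNA fewer cells of a type and less RNA per cell cannot be told apart.

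The summed RNA of the 58 genes went from 7975 ± 92.4 to 8855 ± 151 CPM (SD, n = 3 each), a mean 11.0% higher in KO, and the groups did not overlap (wild type 7910.3 to 8081 CPM, KO 8750.3 to 9028 CPM). Atp5a1 and Atp5b, which encode the head subunits of ATP synthase, made up 27.1% of the wild-type sum and 56.5% of the difference. Without that pair the difference was 6.58%. The same sum over all 14209 tested genes differed by -5.13% on this scale, on which totals are not held constant. By group the sums were 9.86% higher for complex II, 11.0% for complex III, 3.62% for complex IV subunits, 15.0% for F1, 14.2% for Fo and stalk and 6.43% for complex IV assembly. The F1 sum is dominated by Atp5a1 and Atp5b, and the median log2 change of the 5 F1 genes was -0.08. The sum of Atp5s and Atp5sl went the other way, by -29.0% (wild type 51.8 to 61.1 CPM, KO 38.5 to 42.0 CPM). These sums are descriptions with no test.

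**Figure D2:**
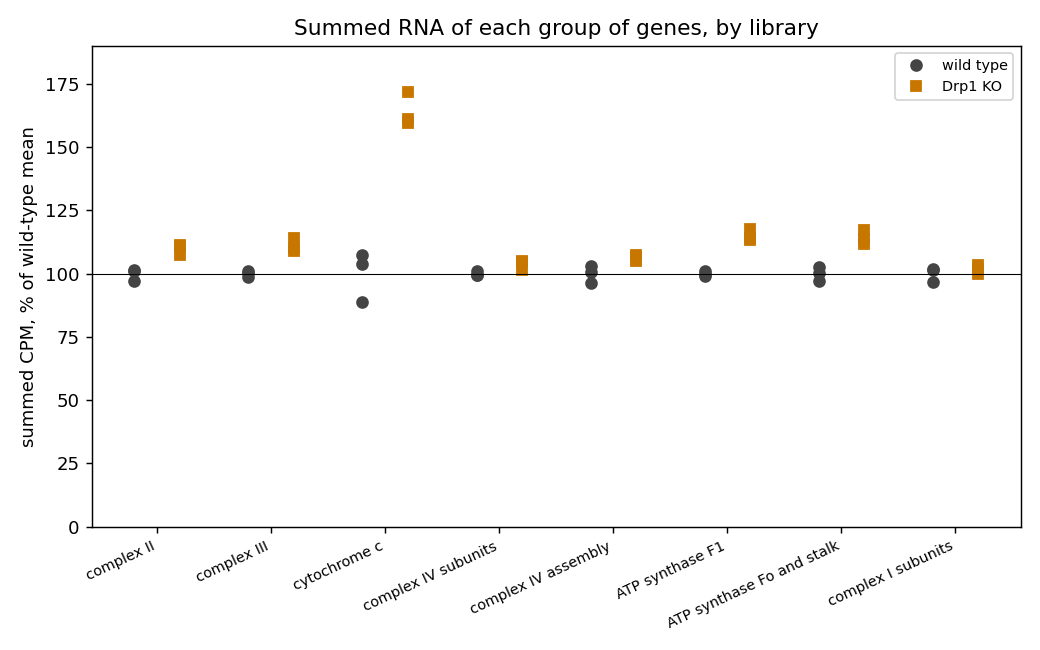
Summed CPM of each group of genes in each library, in percent of the wild-type mean of that group (y axis, from 0); circles are wild type and squares KO, and complex I subunits are shown for comparison. Cytochrome c is Cycs alone and lies far above 100 in all 3 KO libraries, while complex IV subunits were 3.62% and complex I subunits 1.76% above wild type.

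Complex II genes split into a pair that rose and a pair that did not pass, where 26.7% of all tested genes were higher. Sdhb, the iron-sulfur subunit (chromosome 4, 140961203 to 140979193, mm10), stood at 139, 148 and 152 CPM in wild type and 177, 185 and 183 CPM in KO. The KO libraries lay above all wild-type libraries, and Sdhb rose from 146 ± 6.73 to 182 ± 4.14 CPM (log2 0.31 ± 0.05, adjusted p = 0.000567, edgeR). Sdhc, a membrane anchor (chromosome 1, 171127165 to 171150603), rose too, with 94.9, 99.4 and 102 against 114, 118 and 115 CPM (log2 0.22 ± 0.05; values are given here and below as wild type against KO). Sdha, the flavoprotein that holds the succinate site, was measured at 255, 275 and 273 CPM in wild type and 283, 289.6 and 289 CPM in KO. Its KO libraries were all higher, but by so little that it did not pass (log2 0.10 ± 0.05, adjusted p = 0.0847, edgeR), though it did with library totals alone or upper quartile factors. Sdhd, the other anchor, read 171, 165 and 163 against 155, 163 and 169 CPM, with groups that overlapped (log2 -0.04 ± 0.05). The difference between the anchors was not tested.

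In complex III 7 of 9 genes rose, 1 fell and 1 did not pass, where 26.7% of all tested genes were higher and 26.1% lower. Cyc1, the cytochrome c1 subunit that delivers electrons to cytochrome c (chromosome 15, 76343523 to 76346260), was at 114, 122 and 121 CPM in wild type and 155, 164 and 156 CPM in KO. It rose from 119 ± 4.39 to 158 ± 5.16 CPM (log2 0.41 ± 0.05, adjusted p = 0.000143, edgeR), with no overlap between the groups. Uqcrc1, a core subunit (chromosome 9, 108936633 to 108949623), was at 169.8, 182 and 179 CPM in wild type and 228, 237 and 232 CPM in KO, likewise without overlap (log2 0.39 ± 0.05, adjusted p = 0.000118, edgeR). The other core subunit gene, Uqcrc2, was the one that did not pass, from 306 ± 1.05 to 325 ± 8.51 CPM (log2 0.09 ± 0.04), though it passed as higher with upper quartile factors or library totals alone (adjusted p = 0.0476 and 0.00870, edgeR). Uqcr11 (log2 0.45 ± 0.06), Uqcrq (log2 0.38 ± 0.05), Uqcr10 (log2 0.24 ± 0.05), and Uqcrb (log2 0.19 ± 0.06), which encode small subunits, rose. Uqcrfs1, the Rieske iron-sulfur protein, also rose (log2 0.16 ± 0.05). The rises of Uqcrb and Uqcrfs1 were the weakest of the complex, and each lost its call when wild-type replicate 3, KO replicate 2 or KO replicate 3 was left out, Uqcrfs1 also without wild-type replicate 2 (adjusted p = 0.0564 to 0.103, edgeR).

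Uqcrh, the hinge subunit that helps cytochrome c1 meet cytochrome c (chromosome 4, 116066965 to 116075071), went against the rest of complex III. Its levels were 236, 225 and 211 CPM in wild type and 172, 170.1 and 165 CPM in KO. Every KO library was below every wild-type library, and the mean fell from 224 ± 12.3 to 169 ± 3.57 CPM (log2 -0.41 ± 0.05, adjusted p = 0.000168, edgeR). Uqcrh was the most abundant complex III gene per length of transcript, and it fell by about as much as Cyc1, its partner at the cytochrome c docking site, rose. The call held in all alternatives run. Processed pseudogenes of Uqcrh, and of Cycs below, are annotated in the genome, and how reads that match several places were counted is not given in the sources used here.

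Cycs, which encodes somatic cytochrome c (chromosome 6, 50562563 to 50566538), had the largest rise of the 55 genes. Cytochrome c shuttles single electrons from complex III to complex IV and, once released into the cytosol, activates caspases. Its levels were 25.6, 31.0 and 30.0 CPM in wild type and 46.5, 49.6 and 46.0 CPM in KO. The lowest KO library was well above the highest wild-type library. The mean rose from 28.9 ± 2.87 to 47.4 ± 1.92 CPM, a level 63.5% higher (log2 0.71 ± 0.07, adjusted p = 7.22e-05, edgeR). Wild-type replicate 1 had the lowest level, and without it the log2 change was 0.63. Its promoter is shown because the rise was the largest, beside those of Atp5g3 and Atp5g2, genes for the same ATP synthase subunit of which the first rose and the second did not pass, and of Cox7a2l, which fell. Each run is the 250 bases before the start site given by RefSeq for GRCm38.p6, read 5′ to 3′ on the gene's strand, at chr6:50566570-50566819, chr2:73911327-73911576, chr15:102671048-102671297 and chr17:83514334-83514583, all on the minus strand. Capitals mark the letters of the motifs searched: for NRF1 a full motif (GCGC and TGCGC with any 1 base between) and the shorter GCATGCGC, CCGGAAG for ETS factors such as GABP, CACGTG, the E-box, AAGATGG for YY1, and TGACGTCA, the cAMP response element.
Cycs: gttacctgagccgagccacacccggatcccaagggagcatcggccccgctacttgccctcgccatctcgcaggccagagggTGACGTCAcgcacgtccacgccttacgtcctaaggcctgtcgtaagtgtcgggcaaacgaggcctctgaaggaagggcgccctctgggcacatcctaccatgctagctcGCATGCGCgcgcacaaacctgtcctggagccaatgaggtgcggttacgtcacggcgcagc
Atp5g3: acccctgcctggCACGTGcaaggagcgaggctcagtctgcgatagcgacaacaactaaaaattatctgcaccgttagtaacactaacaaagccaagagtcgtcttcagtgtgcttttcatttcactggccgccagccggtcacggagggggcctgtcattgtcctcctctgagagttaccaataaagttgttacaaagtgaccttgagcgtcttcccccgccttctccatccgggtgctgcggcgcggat
Atp5g2: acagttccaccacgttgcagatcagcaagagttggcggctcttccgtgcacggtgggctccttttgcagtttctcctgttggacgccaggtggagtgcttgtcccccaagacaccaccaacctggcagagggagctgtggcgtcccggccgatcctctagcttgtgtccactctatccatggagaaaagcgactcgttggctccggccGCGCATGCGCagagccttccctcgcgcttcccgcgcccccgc
Cox7a2l: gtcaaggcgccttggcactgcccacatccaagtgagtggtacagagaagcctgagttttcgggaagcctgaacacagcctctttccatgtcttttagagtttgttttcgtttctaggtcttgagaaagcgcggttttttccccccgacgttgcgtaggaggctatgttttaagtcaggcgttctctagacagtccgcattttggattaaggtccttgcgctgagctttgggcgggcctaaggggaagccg

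The Cycs window held the response element starting 169 bases before the start site and the shorter NRF1 letters starting 60 bases before it. Both motifs were added after this window had been read. The Atp5g3 window held 1 E-box and the Atp5g2 window 1 full NRF1 motif, within which the shorter letters lie on both strands. The Cox7a2l window held none of the 6. RefSeq starts can differ from the gene starts of the annotation used for positions, and 5 of the 40 windows lie wholly inside the annotated gene, among them those of Cox7a2l and Atp5g2, whose near ends lie 2747 and 1055 bases inside. NRF1 and GABP are textbook activators of respiratory chain genes. A promoter was matched by symbol for 40 of the 55 genes and for 9675 of all tested genes. The full NRF1 letters lay in 6 of the 40 windows (15% against 8.65% of the 9675), the ETS letters in 11 (27.5% against 14.5%), and the E-box in 3 (7.5% against 8.26%). Among the 16 windows of genes that rose, 1 held the full NRF1 letters, 2 the ETS letters, 3 the shorter NRF1 letters and 2 the E-box. Among the 19 of genes that did not pass, 5, 7, 3 and 1 did, in that order. Among the 5 of genes that fell, 0, 2, 0 and 0 did. YY1 letters lay in 1 window of the 40 (2.5% against 4.48%), that of Cox20, the shorter NRF1 letters in 6 (15% against 4.72%) and the response element in 2, Cycs and Uqcrfs1 (5% against 2.82%). Cycs, whose window was read before the shorter NRF1 letters and the response element were added, is counted in both. The shares of these motifs are therefore no independent check. Both strands were searched, and a match describes the letters only.

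Complex IV subunit genes moved both ways: among the 15 tested there were 3 that rose, 4 that fell and 8 that did not pass, with a median log2 change of 0.03. Over all tested genes 26.7% were called higher and 26.1% lower, so moving both ways does not set these genes apart. Cox5a (chromosome 9, 57521274 to 57532426), which sits on the matrix face of the complex, was at 163, 155 and 158 CPM in wild type and 188, 200.3 and 189 CPM in KO. It rose without overlap between the groups (log2 0.28 ± 0.05, adjusted p = 0.000791, edgeR). Cox5b, a zinc-binding subunit, rose from 69.0 ± 1.92 to 84.4 ± 3.60 CPM (log2 0.29 ± 0.05). Cox7b, the only one of the 58 genes on the X chromosome (chromosome X, 106015700 to 106022450), was at 133, 132 and 126 CPM in wild type and 142, 151 and 142 CPM in KO and rose slightly, beside the Xist difference given above (log2 0.15 ± 0.05, adjusted p = 0.0222, edgeR). Its call was lost without wild-type replicate 3 or KO replicate 2 (adjusted p = 0.0963 and 0.104, edgeR). The common forms of the other subunits, Cox4i1, Cox6a1, Cox6b1, Cox6c, Cox7a2, Cox7c and Cox8a, did not pass, and their log2 changes ran from -0.10 to 0.16. Cox8a, with the largest of these values, was at 201, 212 and 237 against 253, 235 and 236 CPM and passed under 4 alternatives that kept all libraries and without wild-type replicate 3, as Cox6a1 and Cox6c did with library totals alone.

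The 4 complex IV genes that fell were Cox7a2l and a trio of isoforms best known from other tissues. Cox7a2l (chromosome 17, 83501918 to 83517330) is named as a factor of the supercomplex, in which complexes III and IV are bound together. Whether its product binds them in mice of this background was not tested, and the values here are of RNA only. Cox7a2l was at 182, 160.2 and 156 CPM in wild type and 124, 119 and 116 CPM in KO. The fall, from 166 ± 13.8 to 119.8 ± 3.72 CPM, left no overlap (log2 -0.47 ± 0.06, adjusted p = 0.000212, edgeR). Cox4i2 (chromosome 2, 152754173 to 152765037), the subunit 4 isoform of lung that low oxygen induces, had 46, 54 and 46 counts in wild type and 16, 16 and 10 in KO. That is 1.74 ± 0.257 to 0.421 ± 0.111 CPM, and it was the largest change of the 55 genes (log2 -2.03 ± 0.24, adjusted p = 0.000128, edgeR). Cox6a2 (2.81, 2.25 and 2.89 against 1.79, 1.55 and 1.76 CPM, log2 -0.63 ± 0.16) and Cox7a1 (2.47, 2.58 and 2.13 against 1.43, 1.68 and 1.31 CPM, log2 -0.70 ± 0.16), the isoforms of heart and skeletal muscle, fell as well. These genes had no more than 91 counts in a library, so counting error is a larger part of their spread. Exons of Cox6a2 also overlap those of Itgad on the opposite strand, and the strand setting of the counting is not given. With a filter of 1 CPM in 3 libraries the calls of Cox6a2 and Cox7a1 stayed. Cox4i2 kept its call too, but it passed that filter only through its wild-type libraries, so this is no check of its fall. Cox7b2, Cox8b and Cox8c, isoforms of testis or muscle, had 0 counts in all 6 libraries, where 3 counts correspond to 0.0840 to 0.128 CPM, an upper limit for counting error only.

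**Figure D3:**
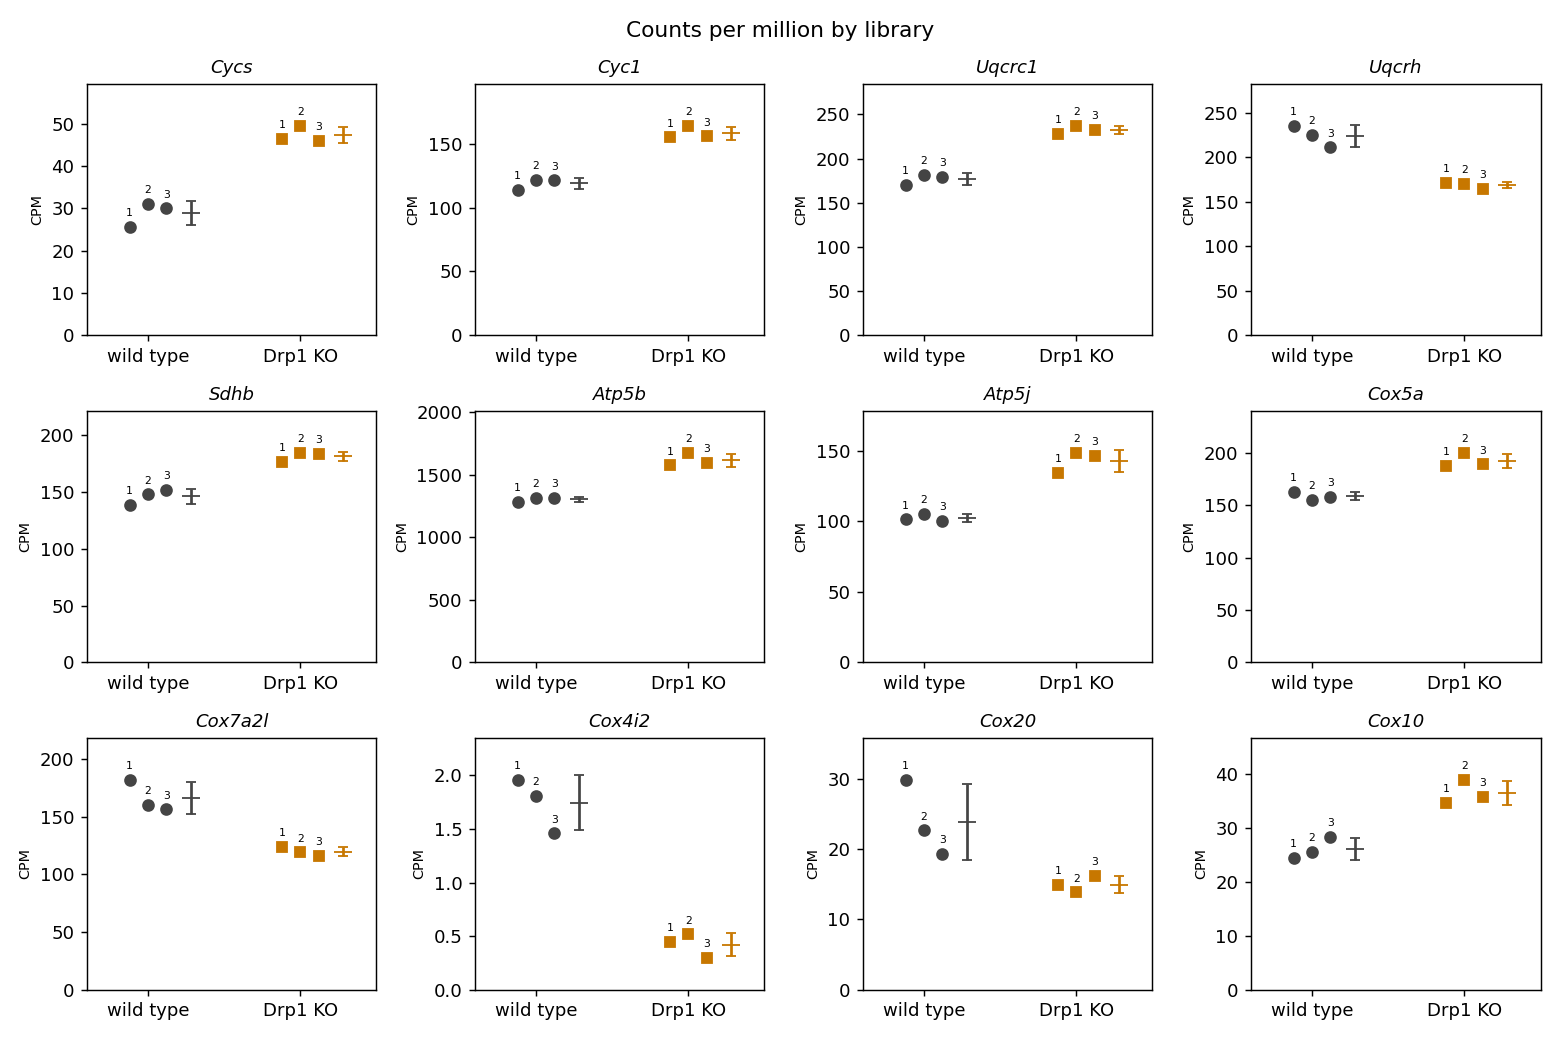
Levels of 12 genes in CPM (y axis, starting at 0) for every wild-type and KO library (x axis); numbered points are replicates, and the bar beside them is the mean with its SD (n = 3). The KO points lie above all wild-type points for Cycs, Cyc1, Uqcrc1, Sdhb, Atp5b, Atp5j, Cox5a and Cox10 and below them for Uqcrh, Cox7a2l, Cox4i2 and Cox20.

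Assembly factors of complex IV were split as well, with 3 of 9 higher, 2 lower and 4 not passing, where 26.7% of all tested genes were higher and 26.1% lower. Cox10 and Cox15 make heme A, the cofactor found in this complex. Cox10 (chromosome 11, 63962627 to 64079468) was at 24.5, 25.6 and 28.5 CPM in wild type and 34.7, 39.0 and 35.8 CPM in KO, and Cox15 (chromosome 19, 43733254 to 43753000) at 51.3, 58.9 and 59.0 CPM in wild type and 71.3, 73.0 and 76.5 CPM in KO. Both enzymes of this pathway rose with no overlap between the groups (log2 0.48 ± 0.07 for Cox10 and log2 0.38 ± 0.06 for Cox15), though exons of each overlap those of other genes on the opposite strand. Cox18, which inserts subunit 2 into the membrane, rose, with 21.0, 22.9 and 19.9 against 27.3, 26.0 and 27.7 CPM (log2 0.34 ± 0.07). Cox20, a chaperone of subunit 2 (chromosome 1, 178319130 to 178322693), fell instead, with levels of 29.9, 22.7 and 19.3 CPM in wild type and 14.9, 13.9 and 16.2 CPM in KO. No KO library reached the lowest wild-type library (log2 -0.67 ± 0.14, adjusted p = 0.00254 by edgeR). Wild-type replicate 1 was the highest library for Cox20, and without it the log2 change was -0.48. Exons of Cox20 overlap those of Hnrnpu on the opposite strand. The library kit keeps strand, but the strand setting of the counting is not given in the sources used here. Cox14, which acts early on subunit 1, was at 42.0, 41.8 and 37.0 against 37.3, 33.7 and 34.6 CPM, with overlapping groups, and its call (log2 -0.19 ± 0.07, adjusted p = 0.0353, edgeR) was lost with library totals alone (0.168), upper quartile factors (0.0547) and without wild-type replicate 2 or KO replicate 2 or 3 (0.106 to 0.132). The copper factors Cox11, Cox17 and Cox19 and the assembly factor Cox16 did not pass (log2 -0.14 to 0.07).

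Of the 17 genes named for ATP synthase 7 were higher, 1 was lower and 9 did not pass, where 52.9% of all tested genes were called either way. The lower gene, Atp5sl, is not a subunit of the enzyme. In the F1 head, the alpha and beta subunits rose and those of the central stalk did not pass. Exons of Atp5a1 overlap those of Haus1 on the opposite strand. Atp5b, the beta subunit that holds the catalytic sites (chromosome 10, 128083273 to 128090391), was at 1282, 1315 and 1315 CPM in wild type and 1575, 1676 and 1592 CPM in KO. Atp5a1, the alpha subunit (chromosome 18, 77773729 to 77782869), was at 823, 873 and 866 CPM in wild type and 1022, 1055 and 1046 CPM in KO. Both rose without overlap between the groups (log2 0.31 ± 0.04 and log2 0.29 ± 0.04, adjusted p = 0.00022 and 0.000339, edgeR). The stalk genes Atp5c1 (log2 -0.09 ± 0.04), Atp5d (log2 -0.11 ± 0.05) and Atp5e (log2 -0.08 ± 0.05) had values slightly below 0, and Atp5d, at 312, 307 and 291 against 295, 277 and 269 CPM, passed as lower without KO replicate 1 (log2 -0.16, adjusted p = 0.0366, edgeR).

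In the membrane part and peripheral stalk of ATP synthase 5 of 10 genes rose, 0 fell and 5 did not pass. Over all tested genes 26.7% were higher and 26.1% lower, or 52.9% either way. Atp5j, the coupling factor 6 of the peripheral stalk (chromosome 16, 84827866 to 84835625), was at 101, 105 and 100.5 CPM in wild type and 134, 148 and 146 CPM in KO. It had the largest rise of the enzyme (log2 0.48 ± 0.05, adjusted p = 9.75e-05, edgeR). Its exons overlap those of Gabpa, which encodes a subunit of GABP, on the opposite strand. Atp5k, the e subunit of the dimer interface, rose, with 48.2, 52.3 and 51.9 against 61.5, 63.6 and 63.4 CPM (log2 0.30 ± 0.05). Atp5f1, the b subunit of the stalk, rose by little (log2 0.15 ± 0.05, adjusted p = 0.0202, edgeR) and lost its call without wild-type replicate 2 or 3 or KO replicate 2 or 3 (0.0585 to 0.0933). The stalk genes Atp5h (log2 -0.04 ± 0.05) and Atp5o (log2 0.07 ± 0.04) and the f subunit gene Atp5j2 (log2 0.00 ± 0.05) did not pass. Atp5l, the g subunit, had only 21 to 28 counts per library and did not pass (log2 -0.44 ± 0.23), and 3 named pseudogenes of it were among the 5 rows left out, each with 0 to 6 counts per library. Atp5s, a coupling factor, did not pass (9.54, 11.4 and 9.90 against 9.82, 10.4 and 10.4 CPM). Atp5sl, a gene named for its likeness to Atp5s that is not a subunit of the enzyme, was at 51.6, 46.6 and 41.9 CPM in wild type and 32.2, 28.1 and 30.4 CPM in KO and fell (log2 -0.62 ± 0.08, adjusted p = 0.000207, edgeR).

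Some subunits are encoded by several genes, and their shares of the family's counts do not depend on the scaling between libraries. These shares are of counts, not per length, so only their change is compared. The c subunit, which forms the turning ring of Fo, has the genes Atp5g1, Atp5g2 and Atp5g3, whose mature protein is the same and whose import sequences differ. Atp5g3, the main source, was at 182, 195 and 187 CPM in wild type and 243, 255 and 245 CPM in KO, and rose (log2 0.40 ± 0.05, adjusted p = 0.000117, edgeR). Atp5g1 rose as well, with 39.3, 43.1 and 36.7 against 48.5, 54.5 and 49.5 CPM (log2 0.36 ± 0.07), while Atp5g2 was at 40.9, 39.1 and 41.7 against 41.7, 37.8 and 37.7 CPM (log2 -0.05 ± 0.06). In shares, Atp5g3 went from 70.1% ± 0.592 to 73.4% ± 0.419 of the family's counts, Atp5g2 from 15.1% ± 0.915 to 11.6% ± 0.831 and Atp5g1 from 14.8% ± 0.876 to 15.0% ± 0.601. The groups did not overlap for the shares of Atp5g3 and Atp5g2 and overlapped for Atp5g1. Each KO library thus had a smaller share of Atp5g2 than each wild-type library.

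In the Cox7a family the share of Cox7a2l was lower in KO. Cox7a2l, named above as a supercomplex factor, is grouped here by name, and whether it stands in for Cox7a2 was not tested. Its share is thus not read as a switch between forms of a subunit. Between Cox7a2 and Cox7a2l, the latter was the gene that fell. The share of Cox7a2, the subunit 7a isoform common outside muscle, was 40.6%, 44.9% and 43.4% in wild type and 51.1%, 51.9% and 52.0% in KO. That of Cox7a2l was 58.6%, 54.3% and 55.9% in wild type and 48.4%, 47.5% and 47.5% in KO. The groups did not overlap for either share. Cox7a2 itself stood at 126, 132 and 121 against 131, 130.1 and 127 CPM and did not pass (log2 0.03 ± 0.05). Per length of transcript Cox7a2 was the higher of the pair in both groups, at 192 ± 8.37 RPKM against 154 ± 12.9 RPKM in wild type and 196 ± 2.73 RPKM against 111 ± 3.46 RPKM in KO. In the Cox4i family Cox4i2 went from 0.624% ± 0.0797 to 0.151% ± 0.0389 of the counts, and Cox4i1, at 279, 284 and 269 against 275, 281 and 277 CPM, supplied the rest (log2 0.00 ± 0.04). Cox6a2 went from 1.66% ± 0.265 to 0.995% ± 0.105 beside Cox6a1 (151, 163 and 157 against 176, 173 and 159 CPM). Cox6b2, a form best known from testis, was read at 32.0, 34.8 and 33.3 against 33.8, 32.0 and 32.2 CPM and held 19.0% ± 0.513 to 18.0% ± 0.879 of the family, with Cox6b1 at 139, 152 and 137 against 147, 156 and 143 CPM. Of 12 shares compared, 11 did not overlap between the groups, where the CPM of 63.3% of all tested genes did not overlap either. For Cox6b1 the gap was narrow, from 81.341% in wild-type replicate 2 to 81.363% in KO replicate 1. Those 11 shares reached p = 0.1 in a 2-sided exact permutation test, the smallest that 3 against 3 libraries can give (0.109 after Benjamini-Hochberg adjustment). Atp5g1 had p = 0.7 (exact permutation). No share can pass 0.05 in this design, and shares of 1 family are not independent of each other. In a family of 2 genes they mirror each other.

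**Figure D4:**
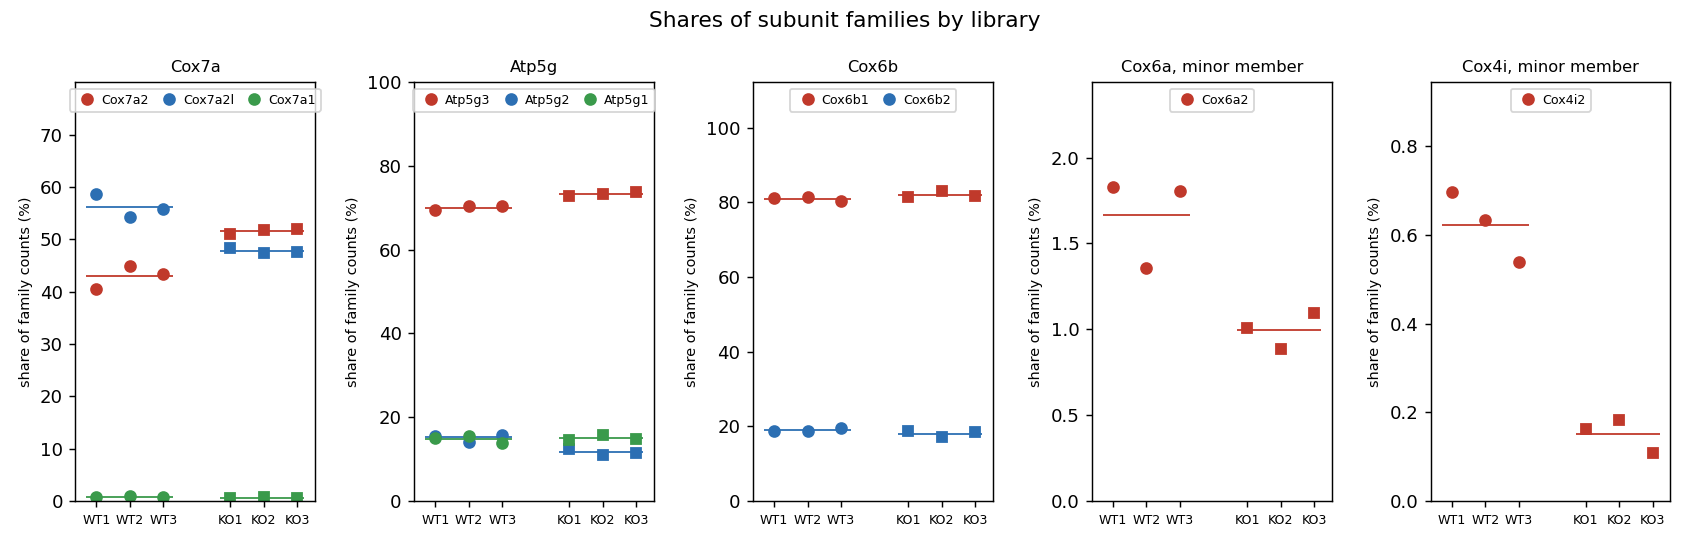
Share of each gene in the summed counts of its family (y axis, percent, from 0) in each library (x axis); circles are wild-type libraries, squares KO libraries and lines group means. The share of Cox7a2l is lower in all 3 KO libraries than in the 3 wild-type libraries, and Cox4i2 lies under 0.2% in KO.

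Levels differed far more between genes than between genotypes. In RPKM, the CPM per kilobase of the shortest well-supported principal transcript, Atp5b had the highest wild-type level at 681 ± 9.83 RPKM, followed by Uqcrh at 409.7 ± 22.5 RPKM, Cox8a at 394 ± 33.5 RPKM, Cox4i1 at 372 ± 9.78 RPKM and Atp5a1 at 346 ± 11.0 RPKM. In KO Uqcrh was the sixth by this measure and Atp5g3 the fifth, up from the tenth. In wild type the neighbours Uqcrh and Cox8a, and Cox8a and Cox4i1, did not differ beyond their SDs. The products of Atp5b and Atp5a1 alternate in the head in equal number, while their RNA stood at 681 and 346 RPKM. Cycs was low at 9.25 ± 0.918 RPKM, with an annotated transcript of 3123 bases. At the low end stood Cox4i2 at 2.40 ± 0.353 RPKM, Cox16 at 2.10 ± 0.128 RPKM and Atp5l at 1.77 ± 0.374 RPKM. The other Fo and stalk genes stood at 66.6 to 263 RPKM in wild type. Atp5l has named pseudogenes, and how reads matching several places were counted is not given. Whether this lowered the level of Atp5l was not tested. The transcript in use can differ from the one chosen, which shifts such levels for a gene in all libraries alike.

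Other genes that serve these complexes were taken from lists of factors. Further factors of complex IV counted 7 that rose and 3 that fell among 17 tested, and Lrpprc, which stabilises mitochondrial mRNAs, had the smallest adjusted p (log2 0.65 ± 0.07). Of 4 complex II factors 1 rose, Sdhaf4 (log2 0.47 ± 0.13), and of 6 complex III factors 2 did, with Uqcc1 (log2 0.36 ± 0.07) smallest in p. Among 6 tested ATP synthase factors 2 rose, Tmem70, an assembly factor (log2 0.38 ± 0.05), and Atpif1, the inhibitor of ATP hydrolysis (log2 0.30 ± 0.05). The 4 lists had 0.06, 0.12, 0.08 and 0.10 as median log2 changes, for the factors of complexes IV, II and III and of ATP synthase in that order. In the same order 41.2%, 25%, 33.3% and 33.3% of their tested genes were higher, against 26.7% of all tested genes.

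Of the 6 partner genes in mitochondrial DNA, 2 had counts. The gene mt-Cytb, the catalytic cytochrome b of complex III, was at 449.7, 559 and 552 CPM in wild type and 856, 1027 and 939 CPM in KO and rose (log2 0.85 ± 0.09), as most nuclear genes of that complex did. The gene mt-Co1, the catalytic subunit of complex IV, was at 9319.7, 8180.2 and 8007 CPM in wild type and 6839, 6942 and 6880.2 CPM in KO and fell (log2 -0.30 ± 0.06). The genes mt-Co2, mt-Co3, mt-Atp6 and mt-Atp8 are listed at 0 in all libraries, so nothing can be said of them. Complex I, the other entry of electrons, had 19 of 36 subunit genes higher and 5 lower, where 26.7% of all tested genes were higher and 26.1% lower. Its median log2 change was 0.16, and Ndufv3, a flavoprotein-side subunit, had the smallest adjusted p (log2 -0.73 ± 0.08). The summed RNA of complex I subunits differed by 1.76%, with groups that overlapped (wild type 2489.9 to 2619 CPM, KO 2576 to 2659 CPM). Whether the complexes differ from each other in their response was not tested.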

How the data were processed

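The values are the raw read counts that the authors deposited, by gene symbol, for 6 libraries. Tools listed in the submitters' processing notes, with no role stated, are HTSeq 0.6.1, STAR 2.5.2, Cufflinks, FastQC and DESeq2 1.12, and the build is mm10. Not given in the sources used here: the annotation release, the strand setting and how reads matching several places were treated. 19 of the genes described share exon bases with another annotated gene, 4 of them on the same strand.

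Counts were tested with edgeR 4.0.16 in R 4.3.3: TMM factors, filterByExpr (14209 genes kept), a quasi-likelihood F test for genotype in all 6 libraries (4 residual degrees of freedom), with p-values adjusted by Benjamini-Hochberg over all tested genes. A log2 fold change, given ± SE, is positive where KO is higher, and CPM values use the TMM factors. Positions and lengths come from GENCODE vM21 (the same build), promoters from RefSeq. In 27 rows, with 0.241% of counts, a date stands in place of the symbol. Intervals and floors cover counting error only. The procedure was also run on simulated counts in which far fewer genes changed than were called here, so that run does not test the scaling between libraries.

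The genes, lists, tests and the naming rule were chosen with earlier results of these data known. Values by library are given for complex II, Cyc1, Cycs, members of subunit families and the 3 genes with the smallest adjusted p in each group; genes against their group's direction, and the smallest p of each other list, are named too. The result of 1 further list is not reported here. Alternatives were other scalings (DESeq2 size factors, upper quartile, library totals), DESeq2 1.42.0, limma-voom (limma 3.58.1), other filters, the replicate number as a block, each library left out, and an adjusted p under 0.01.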

Additional observations from a re-analysis of the deposited data

How the results depend on the processing

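Of the 31 called genes, 26 kept direction and call under all alternatives run, 5 (Uqcrb, Uqcrfs1, Cox7b, Cox14 and Atp5f1) lost the call under at least 1, and 0 reversed. Of the genes that did not pass, 7 passed under at least 1 alternative, and 10 changed sign, all with log2 values near 0. With library totals alone the reversed log2 values were 0.0220 for Atp5g2, 0.0394 for Atp5h, 0.0621 for Atp5s, 0.0175 for Cox17, 0.0414 for Cox6b2 and 0.0382 for Sdhd, and with upper quartile factors 0.0091 for Atp5s. DESeq2 size factors in edgeR gave -0.0074 for Atp5j2 and -0.0066 for Cox4i1, and DESeq2 itself -0.0084 and -0.0075. With a library left out the lowest and highest log2 values were -0.0357 and 0.0279 for Atp5j2, -0.0599 and 0.0680 for Atp5s, -0.0981 and 0.0023 for Cox17, -0.0404 and 0.0888 for Cox19, -0.0240 and 0.0174 for Cox4i1 and -0.0041 and 0.0632 for Cox7a2. For the share of Atp5g1 the difference ran from -0.216 to 0.641 percentage points, turning negative without wild-type replicate 3 or KO replicate 2. The cause was not tested. Leaving out a library gave 19 to 23 higher and 7 to 9 lower genes, and 5985 to 7534 calls over all genes against 7513.

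No label says that the replicate number pairs the libraries, and same-numbered libraries deviated together with correlations of 0.17, 0.13 and 0.01. Wild-type replicate 3 correlated best with KO replicate 2, not with its own number. With the replicate block 25 genes were higher and 9 lower, and 7900 were called over all genes. The genes that passed with the block and not in the fit without it were Sdha (adjusted p = 0.0427) and Cox8a (0.0446), higher, and Atp5d (0.0234), lower, by edgeR. At an adjusted p under 0.01, 19 were higher and 7 lower. Isoforms with few counts, such as Cox4i2, are limited by depth.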
